A study of Mus musculus with 4 samples.

Results

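Epiblast-like aggregates (ELA) formed in the presence of 5-azacytidine (AZA) were compared with the untreated embryonic stem (ES) cells from which they were made, to describe where the treated cells fell short of the ES level of a transcript or went past it. AZA is a cytidine analog that is built into nucleic acids and traps DNA methyltransferases. Both groups were cells of the mouse ES line E14Tg2A (129/Ola strain), a single line that lacks a working Hprt gene. The ES array held RNA of cells at day 0, grown on gelatin in medium with 10% fetal calf serum and leukaemia inhibitory factor (LIF). The AZA array held RNA of cells kept for 2 days as floating aggregates in a chemically defined medium with N2 and B27 supplements, without serum or LIF, with 50 nM AZA added while the aggregates formed. For reference, levels are also given for untreated ELA at 2 days (the ELA array) and for ELA treated with 100 µM of 5-carboxy-8-hydroxyquinoline, an inhibitor of histone demethylases (the CHQ array). Arrays with knockdown of SmarcA4 were not analysed here.

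The members of the comparison were the genes whose probe was well above background on the ES array, the AZA array or both, which were 26811 of 36039 genes. Counted by probes, they were 38535 of the 55122 probes measured on all arrays, of which 32137 passed on both arrays, 823 on ES alone and 5575 on AZA alone. Of the member genes 19190 passed a minimum mean log2 intensity of 7.5 over both arrays, which is the set in which genes were called. Each group had 1 array, made from a pool of RNA of 3 experiments, so no spread between biological replicates can be given and no p-value was computed. Replicate spots give a technical SD of 0.19 for a log2 difference between these arrays. The ES and ELA arrays lay on 1 slide and the AZA and CHQ arrays on another, so slide, medium, aggregation and time in culture cannot be told apart from AZA in the difference between AZA and ES. The local background had a median of 59 intensity units on the ES array and 77 on the ELA array, against 14 on AZA and 13 on CHQ. Gene spots passed the background limit in 60.6% of cases on ES, 55.1% on ELA, 69.1% on AZA and 69.2% on CHQ. The part of these gaps in the differences of dim genes was not tested.

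Mouse ES cells in serum and LIF hold a naive state. LIF acts through STAT3, and bone morphogenetic proteins (BMP) in serum act through SMAD proteins to keep Id genes on. When both are withdrawn, cells pass through a formative to a primed state like that of the epiblast after implantation, in which Fgf5 and the de novo DNA methyltransferases rise and naive factors such as Klf4, Esrrb and Zfp42 fall. DNA methylation in turn keeps many genes of the germline silent.

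A gene was called when the 2 arrays differed by at least 1 log2 unit. Between AZA and ES 3743 of 19190 genes were called (19.5%), of which 2155 were higher with AZA (11.2% of the genes tested) and 1588 were lower (8.28%). The median difference over all genes tested was -0.07, and the middle 90% of genes lay between -1.23 and 1.62. The limit cut through a dense part of the distribution, since 670 genes differed by 0.9 to 1 and 595 by 1 to 1.1. A difference of at least 2 was found for 717 genes, of which 556 were higher with AZA and 161 lower. These directions are relative to the bulk of transcripts. When the arrays were scaled to their E1A spike-in probes instead, the median moved to -0.66, and 1157 genes were higher and 5991 lower, so that 16.2% of called genes were higher with AZA in place of 57.6%. Where a gene had a second probe, the 2 probes gave similar but not equal differences (Pearson's r = 0.689 across 4518 genes, which are not independent replicates), and of 810 called genes 714 had the same sign in the second probe and 450 had the same sign with a difference of at least 1.

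Gene lists are described by the members that passed the minimum mean, with the number on the array where some did not pass. The AZA level enters that mean, so a gene dim in ES passed more easily where it rose, and the median over all members on the array is therefore given beside that over the members that passed. The share of members called is set against the 19.5% called over all genes, and counts under the spike-in scaling are given as well.

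**Figure D1:**
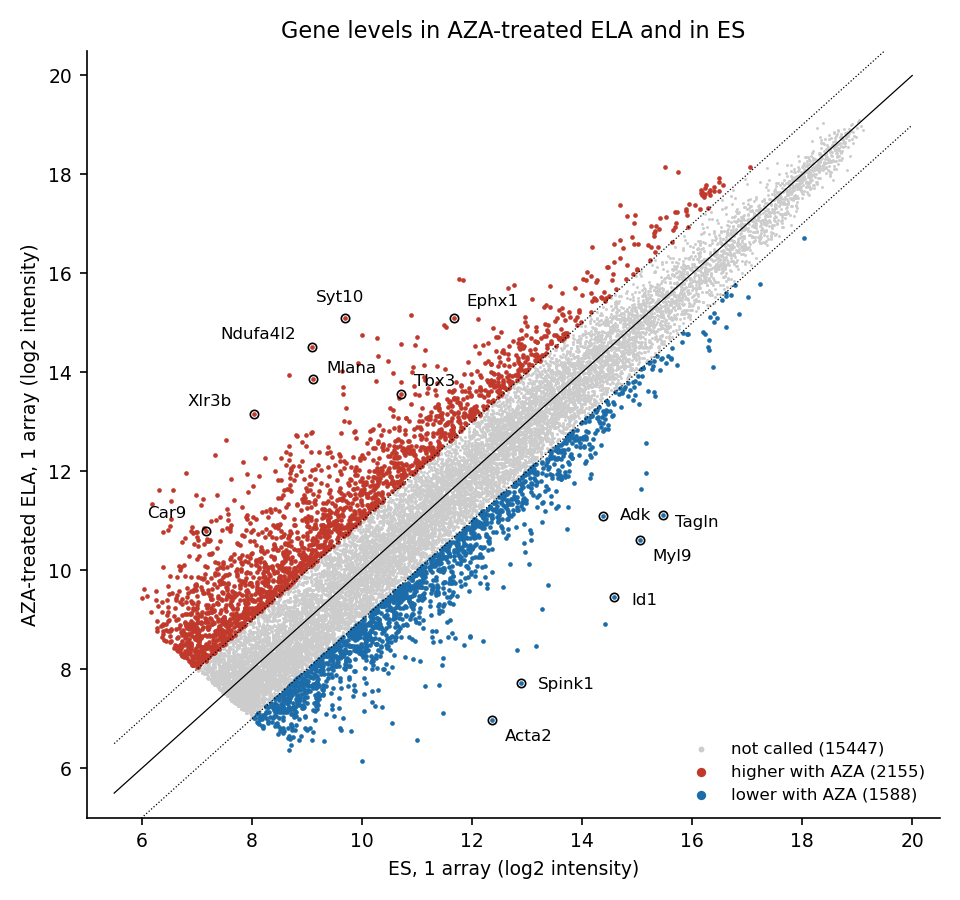
Level of each of 19190 genes in ES (x axis) and in AZA-treated ELA (y axis), as log2 intensity on 1 array each; red and blue points are the 2155 genes called higher and the 1588 called lower with AZA, the solid line marks equal levels and the dotted lines a difference of 1. Circled genes lie far from the line, from Syt10 at 9.69 in ES and 15.09 with AZA to Acta2 at 12.37 and 6.97.

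The untreated ELA array places each of these differences. For comparison, 1904 of 18947 genes (10.0%) were called between ELA and ES. Called genes were sorted by whether ELA itself lay at least 1 from ES. For 319 called genes ELA lay on the same side of ES as AZA, 166 above and 153 below, which is where the treated cells failed to hold the ES level. For 418 called genes AZA lay past ES, on the side away from ELA, 341 of them higher and 77 lower. For the remaining 1648 higher and 1358 lower genes, ELA lay within 1 of ES, and AZA differed from both. All of these counts use the ES array in both differences and are descriptions only. Read the other way, of 844 genes higher in ELA than in ES, AZA was within 1 of ES for 591, past ES for 88 and on the ELA side for 165. Of 1060 genes lower in ELA, AZA was within 1 of ES for 610, past it for 293 and on the ELA side for 157.

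Among the genes on the ELA side of ES, most were close to the ELA level itself. Of the 166 higher genes, 132 were within 1 of ELA, 14 lay between the ES and ELA levels and 20 were beyond ELA. Of the 153 lower genes, 119 were within 1 of ELA, 17 lay between and 17 were beyond ELA. The median levels of the lower genes were 10.57 in ES, 8.95 in ELA, 8.68 under AZA and 8.79 under CHQ. For the 341 genes that went past ES upwards the medians were 9.74, 8.08, 11.76 and 11.45 on the same arrays. CHQ, on the slide of AZA, had a median near that of AZA in both classes.

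Spink1, Id1, Tbx3 and Ephx1 were chosen to mark the comparison with earlier results of these data known. Spink1, which encodes a secreted serine protease inhibitor, had a log2 intensity of 12.89 in ES, 7.37 in ELA, 7.73 under AZA and 7.71 under CHQ. It was high in ES and equally low in all aggregates, and AZA minus ES was -5.17. Id1, an inhibitor of basic helix-loop-helix factors and a direct BMP target, had 14.59 in ES, 10.61 in ELA, 9.46 under AZA and 9.20 under CHQ. The AZA level was the lowest but that of CHQ, with a difference of -5.13 from ES and of -1.15 from untreated ELA. Tbx3, a T-box factor of the naive state, had 10.72 in ES, 8.46 in ELA, 13.56 under AZA and 12.03 under CHQ. It was lowest in aggregates without a drug and lay 2.84 above ES with AZA. Ephx1, the microsomal epoxide hydrolase, had 11.67, 8.87, 15.09 and 15.08 on the same arrays, 3.42 above ES with AZA, while its second probe gave a difference of 0.75. Probes of the last 3 genes are printed because Id1 and Tbx3 rest on 1 probe each and the 2 probes of Ephx1 differ in the size of the difference (mouse build mm9, positions as the deposited files give them, on the strand named).
Id1, chr2:152563083-152563142, plus strand: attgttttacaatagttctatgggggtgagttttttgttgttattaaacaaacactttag
Tbx3, chr5:120134511-120134570, plus strand: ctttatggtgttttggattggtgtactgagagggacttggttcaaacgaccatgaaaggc
Ephx1, brighter probe, chr1:182919689-182919748, minus strand: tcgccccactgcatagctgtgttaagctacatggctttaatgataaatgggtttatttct
Ephx1, dimmer probe, chr1:182924124-182924183, minus strand: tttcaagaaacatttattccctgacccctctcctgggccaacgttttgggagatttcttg

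Of 18 naive pluripotency genes 12 were within 1 of ES with AZA, 4 were past it and 2 were on the ELA side. The share called (33.3%) was above that over all genes tested (19.5%), and without the drug the median of these genes lay -2.67 from ES. The list's median difference was 0.27, or -0.43 when scaled to the spike-in probes, where 1 gene was higher and 5 were lower. Zfp42 (Rex1) had 15.80 in ES, 11.99 in ELA, 15.72 under AZA and 15.04 under CHQ. Prdm14, a repressor of de novo methylation and of fibroblast growth factor signalling, had 10.56, 6.68, 10.74 and 8.36. Both sat at the ES level with AZA, and Prdm14 was lower with CHQ. Nanog had 15.03 in ES, 12.53 in ELA, 15.39 under AZA and 12.54 under CHQ, although its dimmer second probe gave AZA minus ES as -1.31. Nr0b1 (Dax1) was 0.56 and Fgf4 0.46 above ES with AZA.

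The 4 naive genes past ES had AZA as the highest array. Besides Tbx3, Esrrb, an orphan nuclear receptor, had 14.93 in ES, 12.08 in ELA, 15.98 under AZA and 13.97 under CHQ. Klf4 had 12.54, 9.50, 13.58 and 13.00. Tcl1, an activator of AKT, had 13.07, 9.40, 14.37 and 10.54. The excess over ES was 1.05, 1.05 and 1.29, and under the spike-in scaling it was 0.19 for Esrrb, 0.44 for Klf4 and 0.60 for Tcl1. Tbx3 kept 2.31 there.

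Gbx2 and Dppa3 (Stella) were the naive genes called on the ELA side of ES. Gbx2, a homeobox gene downstream of LIF, had 10.78 in ES, 9.62 in ELA, 8.24 under AZA and 8.79 under CHQ. Dppa3, a maternal factor that protects the maternal genome of the zygote from demethylation, had 12.37, 10.43, 9.97 and 7.0. AZA minus ELA was -1.38 for Gbx2 and -0.46 for Dppa3.

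Of 18 genes that open in the formative and primed epiblast, 16 were within 1 of ES with AZA, beside 15447 of 19190 over all genes (11.1% called against 19.5%, with 0 higher and 7 lower under the spike-in scaling), with a median difference of 0.01 beside -0.07 for all genes. Fgf5 had 11.61 in ES, 14.47 in ELA, 11.94 under AZA and 13.33 under CHQ, and Sox3 had 11.82, 14.55, 11.11 and 12.42. Both were highest in untreated ELA and near ES with AZA. Lef1, a nuclear partner of beta-catenin, was the gene above the limit, with 12.52 in ES, 13.73 in ELA, 13.55 under AZA and 15.54 under CHQ, while its second probe gave 0.55. Cdh2 (N-cadherin) was the gene below it, at 11.28 in ES, 12.01 in ELA, 8.65 under AZA and 12.08 under CHQ, and its second probe gave -2.53. It was low on the AZA array alone. Pou5f1, the general pluripotency factor, differed from ES by -0.90 with AZA and Sox2 by 0.33.

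Targets of LIF, BMP and serum lay on both sides of ES with AZA. Of 13 LIF and STAT3 genes (14 on the array), 4 were lower with AZA, 1 (Klf4) was higher and 8 were within 1 of ES, with a median of -0.31 (-0.30 over the 14) and 38.5% called. Under the spike-in scaling 0 were higher and 6 lower. Bcl3 had 13.74 in ES, 10.03 in ELA, 11.29 under AZA and 10.65 under CHQ. Socs3, the feedback inhibitor of the pathway, had 13.43, 10.43, 12.55 and 13.12, so it was closer to ES at -0.88. Myc (-1.79) and Pim3 (-1.07) were also on the ELA side. The receptor genes Lifr (0.64) and Il6st (0.06) and Stat3 itself (-0.02) were within 1 of ES, although the second Stat3 probe gave -1.32.

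Of 18 BMP and Id genes (20 on the array) 5 were lower, 3 were higher and 10 were within 1 of ES, with a median of -0.34 (-0.28 over the 20) and 44.4% called. The spike-in scaling gave 8 lower and 3 higher. Of the 8 called genes 3 were on the ELA side of ES. Id2 had 13.38 in ES, 10.42 in ELA, 9.70 under AZA and 10.79 under CHQ, and Id3 had 13.44, 13.69, 11.36 and 10.36. Id3 was thus at the ES level in untreated ELA and lower in both treated groups. Id4 went the other way, with 8.72 in ES, 6.84 in ELA, 10.76 under AZA and 9.63 under CHQ. The ligand Bmp7 had 9.46, 10.01, 12.29 and 12.65, and Fst, which encodes the activin and BMP antagonist follistatin, had 10.23, 10.46, 12.48 and 11.80. The BMP receptor genes Bmpr1a (-0.32) and Bmpr2 (0.01) did not differ by the limit.

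Nodal and its feedback inhibitors overshot the ES level. Of 14 genes (15 on the array) 6 were higher with AZA and 0 were lower, with a median of 0.52 (0.34 over the 15) and 42.9% called. The median became -0.06 under the spike-in scaling, with 3 higher and 2 lower. Lefty2 had 11.50 in ES, 9.11 in ELA, 14.96 under AZA and 12.08 under CHQ. Lefty1 had 11.51, 7.90, 14.07 and 11.59. These genes encode secreted inhibitors of Nodal and are its targets, and both were near the ES level with CHQ and clearly above it with AZA. Nodal itself had 13.04, 9.32, 14.17 and 13.91, which is 1.14 above ES with AZA and 0.46 under the spike-in scaling. The receptor gene Acvr2b (0.07) and the co-receptor gene Tdgf1 (-0.19) were within 1 of ES.

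**Figure D2:**
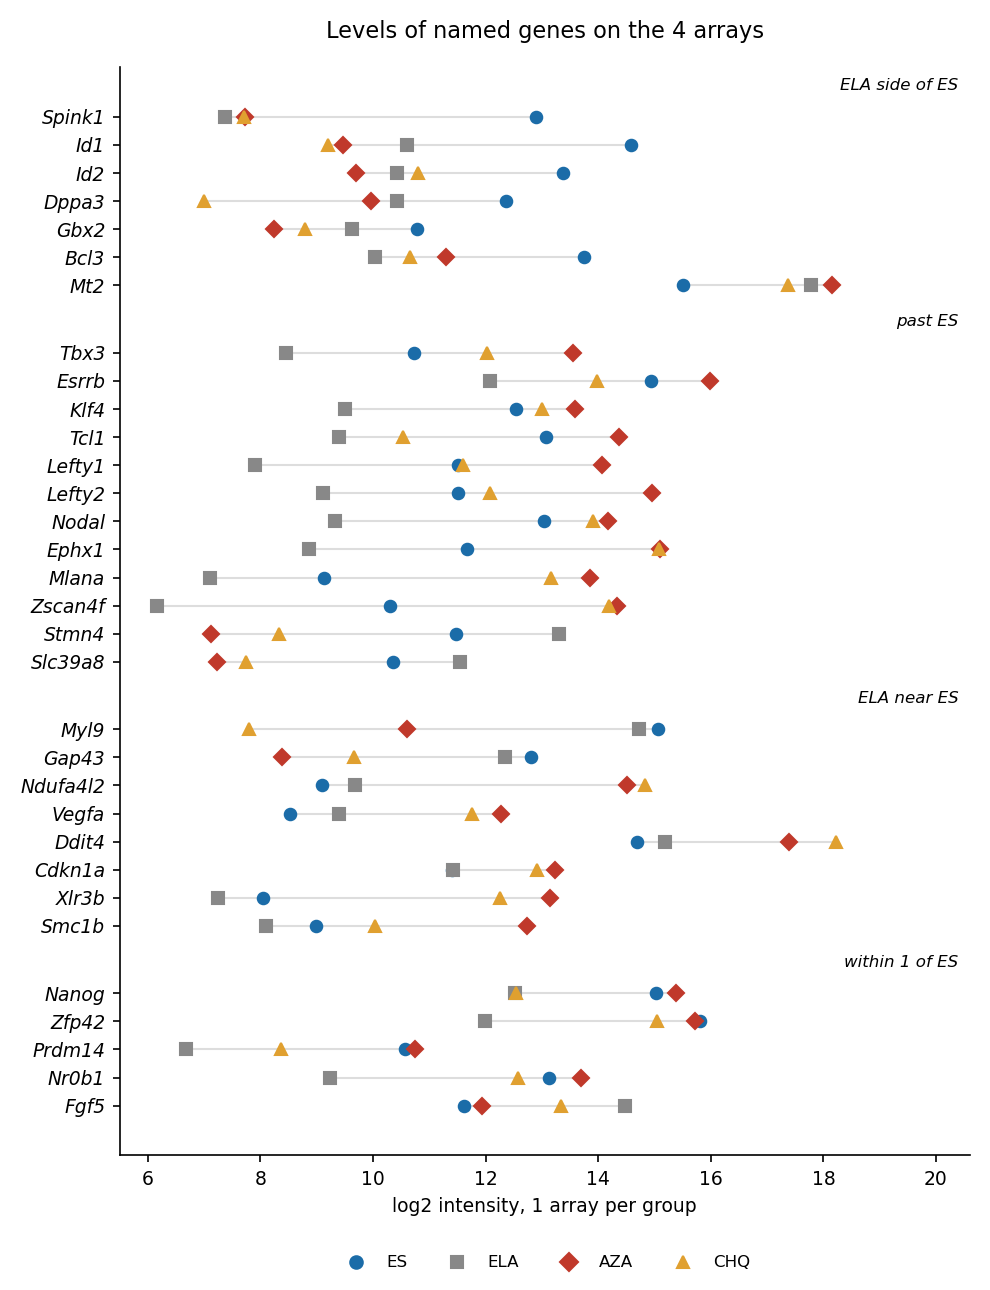
Log2 intensity (x axis) of 32 genes on the ES, ELA, AZA and CHQ arrays, 1 array each, grouped by whether the untreated ELA level lay on the side of AZA (ELA side of ES), on the opposite side (past ES) or within 1 of ES, and with 5 genes for which AZA was within 1 of ES. AZA (diamonds) lies beside ELA for Spink1 and Id2, to the right of ES for Tbx3 and Lefty2, and on ES for Zfp42 and Fgf5.

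Genes of the contractile cytoskeleton were among the largest falls below ES. Acta2, smooth muscle alpha-actin, had 12.37 in ES, 10.83 in ELA, 6.97 under AZA and 6.88 under CHQ. Myl9, a regulatory myosin light chain, had 15.06, 14.72, 10.61 and 7.79, and Tagln (transgelin) had 15.47, 13.69, 11.12 and 10.40. Each was high on both arrays of the first slide and low on both of the second, so AZA minus ES was -5.40, -4.46 and -4.35, and AZA minus untreated ELA, which had been kept in the same medium, was -3.86, -4.11 and -2.57. Actc1, cardiac alpha-actin, was not well above background with AZA and at least 12.1-fold lower than in ES. Of 17 contractile genes (a list drawn up after these values were seen) 10 were lower, 0 were higher (58.8% called) and the median was -1.70. They include Thbs1, a matrix glycoprotein, at 11.14 in ES, 9.39 in ELA, 7.67 under AZA and 8.92 under CHQ. Over all 21 contractile genes on the array the median was -0.74, and the spike-in scaling gave 13 lower and 0 higher. In the wider list of targets of serum response factor (SRF) and of YAP, which holds several of the same genes, 12 of 24 were lower and 3 were higher, with a median of -0.97 (also -0.97 over the 26 on the array), and of these 15 called genes (62.5%) 7 were on the ELA side of ES. With the spike-in scaling 15 were lower and 2 higher. Srf itself had 12.87 in ES, 13.10 in ELA, 11.62 under AZA and 11.39 under CHQ (-0.83 for AZA minus ES in its second probe), and Ccn1, a target of YAP, had 11.61, 11.70, 9.34 and 9.86.

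The genes of that list called above ES were the immediate early genes Fos (2.83), Egr1 (2.10) and Egr2 (1.19). Fos had 8.35 in ES, 10.42 in ELA, 11.18 under AZA and 12.84 under CHQ. Egr1 had 11.86, 13.36, 13.96 and 14.48. Both were already higher in untreated ELA than in ES. The other immediate early genes of the list did not go with them, since Ier2 (-1.19) was called lower and Fosl1 (0.75), Jun (0.60), Fosb (0.08), Ier3 (-0.11) and Junb (-0.78) were within 1 of ES.

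SRF binds the CArG box, a run of 6 A or T bases between CC and GG. The box was searched in promoter windows from RefSeq (build GRCm38.p6, 250 bases before to 50 after each gene's start, both strands at once since the pattern equals its own reverse complement). It was in 535 of 32851 windows (1.63%). Of the 10 contractile genes called lower, 8 had a window, and 5 of these held a box (Acta1, Actc1, Myl9, Cnn2 and Vcl) while Acta2, Cnn1 and Tpm2 held none. Srf held 2 boxes, and Egr2, which was 1.19 above ES, held a box as well. Boxes are part of how SRF targets are known and the contractile list was drawn up after its values were seen, so these counts describe the printed genes and are no comparison with other genes. The stretches printed are those of the contractile genes that were called lower and held a box, and of Srf, with the boxes in capitals. A match is a description of letters and not of binding.
Acta1, chr8:123894814-123894873, minus strand: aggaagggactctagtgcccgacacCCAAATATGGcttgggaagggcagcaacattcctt
Actc1, chr2:114052888-114052947, minus strand: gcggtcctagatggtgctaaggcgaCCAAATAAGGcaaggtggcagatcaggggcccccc
Myl9, chr2:156775278-156775337, plus strand: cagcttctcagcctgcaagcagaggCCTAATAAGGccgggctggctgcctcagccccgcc
Cnn2, chr10:79988519-79988578, plus strand: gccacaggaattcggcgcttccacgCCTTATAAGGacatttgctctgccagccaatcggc
Vcl, chr14:20929148-20929205, plus strand: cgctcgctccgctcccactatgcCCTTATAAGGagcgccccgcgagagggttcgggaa
Srf, chr17:46556190-46556269, minus strand: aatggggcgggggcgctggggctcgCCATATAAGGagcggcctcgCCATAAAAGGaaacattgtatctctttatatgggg

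In these windows the box started 73 bases before the annotated start of Acta1, 47 before Actc1, 161 before Myl9, 56 before Cnn2 and 227 before Vcl, and 82 and 62 before Srf. Acta1, skeletal alpha-actin, had 11.01 in ES, 9.68 in ELA, 6.57 under AZA and 6.54 under CHQ. Cnn2 (calponin 2) had 13.33, 12.87, 11.19 and 8.81, and Vcl (vinculin, which links integrins to actin) had 12.46, 12.27, 11.30 and 12.23. Vcl was lower with AZA than with CHQ, whereas Cnn2 and Myl9 were lower with CHQ.

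Of 25 genes of cholesterol synthesis and uptake 6 were lower with AZA and 0 were higher (24.0% called, near the 19.5% over all genes). Under the spike-in scaling 20 were lower. The list's median was -0.66, while the medians of the same genes were 0.21 for CHQ minus ES and 0.58 for ELA minus ES. The 3 differences share the ES array. Lss (lanosterol synthase) had 11.93 in ES, 12.71 in ELA, 10.04 under AZA and 11.57 under CHQ, and Idi1, an isomerase of the isoprenoid pathway, had 14.41, 14.66, 13.15 and 14.69. For both AZA was the lowest array. Sqle (-0.60) was within 1 of ES.

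Of 16 early neural genes (24 on the array) 6 were lower with AZA and 0 were higher, with a median of -0.76 (-0.31 over the 24) and 37.5% called, or 9 lower and 0 higher with the spike-in scaling. Stmn4, a tubulin-binding stathmin, had 11.47 in ES, 13.31 in ELA, 7.12 under AZA and 8.32 under CHQ, and its second probe gave -4.04. Tubb3 (class III beta-tubulin) had 12.62, 13.30, 10.65 and 10.02, and Gap43, a growth cone protein outside the list, had 12.81, 12.34, 8.39 and 9.66. The other list members called were the stathmin genes Stmn2 (-1.69) and Stmn3 (-1.72), Nefl (a neurofilament subunit, -2.01) and Map2 (a microtubule-associated protein, -1.32). Regulators in the list that were within 1 of ES included Sox1 (-0.04, second probe -1.09), Zic1 (-0.06, second probe 1.11), Zic2 (0.06), Hes5 (0.29), Sox3 (-0.71), Lhx2 (0.88) and Otx2 (0.90). Pax6 (-1.31) and Zfp521 (-0.99) were too dim to be called. Other large falls included Plac8 (-4.69, second probe -2.90), Anxa3 (-3.72), Calcr (the calcitonin receptor, -3.64), Slc39a8 (a zinc importer, -3.14) and Vat1l (-2.86).

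Of 28 hypoxia and glycolysis genes (30 on the array) 15 were higher with AZA than in ES and 0 were lower, with a median of 1.07 (0.98 over the 30) and 53.6% called. Scaled to the spike-in probes, 11 were higher and 1 was lower, with a median of 0.32. Vegfa, the endothelial growth factor, had 8.53 in ES, 9.40 in ELA, 12.27 under AZA and 11.76 under CHQ. Ndufa4l2, a mitochondrial protein induced by hypoxia that is not in the list, had 9.1, 9.68, 14.51 and 14.83, one of the 2 largest rises by the rule for named genes. Ddit4, an inhibitor of mTOR, had 14.69, 15.19, 17.39 and 18.22. A second Vegfa probe gave a smaller difference of 2.19. In these 3 genes AZA and CHQ were both high and ES and ELA were both lower. Car9, a carbonic anhydrase, had 7.16 in ES, 6.96 in ELA, 10.80 under AZA and 7.15 under CHQ, and was high with AZA alone. The glycolytic enzymes Ldha (-0.06, other probes -1.31 and -0.88), Pkm (0.12), Eno1 (0.31), Aldoa (0.67) and Pgk1 (0.82) were within 1 of ES, while Aldoc (1.53) and Pfkp (1.83, second probe -0.10) were called higher. Other calls included Bnip3 (1.99), Ndrg1 (2.77) and Adm (2.92).

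Of 23 p53 targets (24 on the array) 12 were higher and 0 were lower, with a median of 1.08 (0.88 over the 24) and 52.2% called. Under the spike-in scaling the count fell to 6 higher and 2 were lower, with a median of 0.23. The median was 1.40 for CHQ minus ES and -0.29 for ELA minus ES, and all 3 differences share the ES array. Cdkn1a (p21, an inhibitor of cyclin-dependent kinases) had 11.40 in ES, 11.42 in ELA, 13.24 under AZA and 12.92 under CHQ. Mdm2, the ubiquitin ligase for p53, had 15.26, 14.46, 16.53 and 17.19, a difference of 1.27 from ES that was 0.36 under the spike-in scaling. Other probes gave 0.82 to 1.12 for Cdkn1a. Trp73 was 2.44 above ES (0.66 and 0.92 in other probes) and Btg2 was 2.26 above it, whereas Bax (-0.26) and Perp (-0.20) were within 1, with Bax at -1.08 under the spike-in scaling. Of 25 genes of the ATF4 and unfolded protein response (27 on the array), 5 were higher and 2 were lower, with a median of 0.49 (also 0.49 over the 27) and 28.0% called. The median became -0.16 under the spike-in scaling, with 4 higher and 3 lower. Ddit3 (CHOP) had 8.28 in ES, 9.86 in ELA, 10.39 under AZA and 10.57 under CHQ.

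The metallothionein genes Mt1 and Mt2 were higher in all aggregates than in ES, while Mt3 (-0.72) and Mt4 (-0.32) were within 1 of ES with AZA. Mt2 had 15.50 in ES, 17.78 in ELA, 18.16 under AZA and 17.37 under CHQ, and Mt1 had 15.75, 17.65, 18.04 and 17.37, so that AZA was close to untreated ELA and 2.65 and 2.29 above ES. Of 23 detoxification genes (28 on the array) 7 were higher and 1 was lower, with a median of 0.59 (0.43 over the 28) and 34.8% called. The median became -0.25 under the spike-in scaling, with 4 higher and 5 lower. Abcb1b, a drug efflux pump, had 11.82 in ES, 8.79 in ELA, 13.62 under AZA and 14.77 under CHQ. The glutathione transferase gene Gsta3 had 9.78, 7.66, 11.84 and 10.35, and both genes went past ES.

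Genes of the 2-cell embryo and the germline lay above ES more often than below it. Of 13 genes of the Zscan4 and 2-cell list (17 on the array) 9 were higher, 0 were lower and 4 were within 1 of ES, with a median of 3.09 (2.62 over the 17) and 69.2% called. The spike-in scaling gave 9 higher and 3 lower. Zscan4f, a zinc finger gene that marks a rare subset of ES cells, had 10.30 in ES, 6.17 in ELA, 14.34 under AZA and 14.20 under CHQ, and Zscan4e had 9.93, 6.23, 14.20 and 13.97. Both were lowest in aggregates without a drug, and both treated groups lay far past ES. A change in the share of positive cells and a change in the RNA per cell cannot be told apart in these bulk samples. The list's members Zfp352 (-0.82) and Eif1a (-0.74) were not above ES.

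Of 31 germline and meiosis genes (36 on the array) 12 were higher and 5 were lower, with a median of 0.62 (0.58 over the 36) and 54.8% called, or 11 higher and 6 lower with the spike-in scaling. Smc1b, a cohesin subunit of meiosis, had 8.99 in ES, 8.09 in ELA, 12.74 under AZA and 10.03 under CHQ. Hormad1, which guards chromosome pairing, had 8.47, 7.04, 11.46 and 10.54 (2.98 above ES, 1.39 in its second probe), and Dazl, an RNA-binding protein of germ cells, had 7.75, 7.40, 10.53 and 9.30. For these AZA was the highest array, with CHQ next. The piRNA pathway genes Ddx4 (-2.09) and Mael (-1.39) were below ES, and the synaptonemal genes Sycp1 (-0.16) and Sycp3 (-0.04) were at the ES level.

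Of 13 Rhox and X-linked testis genes that passed the minimum mean 9 were higher and 2 were lower (84.6% called), with a median of 2.02. The other 9 of the 22 on the array were too dim, and the median over the 22 was 1.06. With the spike-in scaling 7 were higher and 2 lower. Xlr3b had 8.04 in ES, 7.24 in ELA, 13.15 under AZA and 12.25 under CHQ, and its second probe gave 4.76. Outside the list, the reproductive homeobox gene Rhox2c had 6.81, 6.33, 11.96 and 10.69. Rhox2h, also outside it, had 7.33, 7.70, 12.33 and 10.87, with a second probe at 2.14. These genes were dim on both arrays of the slide with the higher background. Without background correction the differences were 5.24, 5.46 and 5.15. Among genes not well above background in ES, the largest bounds were for Xlr5b (at least 34.6-fold higher with AZA), Ifi27 (33.7-fold), Xlr4b (29.4-fold) and Xlr5c (28.4-fold). These bounds hold for the quantile-normalised values only. Log2 differences under the spike-in scaling were 4.80, 4.58, 4.38 and 4.65, each below the log2 bound of 5.11, 5.07, 4.88 and 4.83. Among those called, 92 genes were not well above background in ES, against 2 not well above background with AZA. Over all probes the imbalance ran the same way, with 5575 passing on AZA alone and 823 on ES alone. The part of the background gap between the slides in these counts was not tested. In the same cluster on the X chromosome Rhox6 had 10.97 in ES, 8.98 in ELA, 9.02 under AZA and 9.50 under CHQ, and Rhox9 had 11.01, 9.15, 9.66 and 9.86, so these stayed at the ELA level. The probes of Xlr3b and Xlr4a share a long run, shown in capitals (build mm9), so their values are not independent.
Xlr3b, chrX:70448087-70448146, plus strand: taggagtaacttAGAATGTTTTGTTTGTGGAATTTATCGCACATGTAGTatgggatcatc
Xlr4a, chrX:70319816-70319875, minus strand: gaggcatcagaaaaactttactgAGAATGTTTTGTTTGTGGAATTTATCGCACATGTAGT

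Imprinted genes were split, with 5 of 24 higher and 7 lower (50.0% called) and a median of 0.09 (0.17 over the 32 on the array). The spike-in scaling gave 4 higher and 9 lower, with a median of -0.36. The paternally expressed Peg10 had 10.19 in ES, 8.78 in ELA, 7.57 under AZA and 7.43 under CHQ, and the maternally expressed H19 had 8.07, 8.01, 10.19 and 9.75, although other H19 probes gave differences from -0.03 to 1.05. Ascl2 differed from ES by 1.75 and Dlk1 by -1.48.

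In 336 of 19158 genes (1.75%) the AZA array was at least 1 above every other array, and in 179 (0.934%) it was at least 1 below. The ES array stood apart in this way in 103 and 122 genes, ELA in 330 and 699, and CHQ in 413 and 165. Since CHQ shares the slide and the medium, these genes separate AZA from a second array of its own slide. Besides Car9, Lefty2 and Cdh2, they included Pyy (peptide YY), with 7.18 in ES, 6.95 in ELA, 10.60 under AZA and 7.45 under CHQ, and Defb42, a beta-defensin, with 7.04, 6.45, 10.29 and 7.25. Below the others was Adk, adenosine kinase, with 14.39 in ES, 14.57 in ELA, 11.10 under AZA and 14.11 under CHQ. Every array but AZA was high, AZA minus ES was -3.28, and its second probe gave -2.90. Jakmip2 (-2.80), Cdk14 (-2.98) and Calcr also stood below every other array. The enzymes that phosphorylate cytidine and uridine did not differ by the limit, with -0.78 for Uck1 and 0.73 for Uck2, whose genes belong to a nucleoside list in which 2 of 16 (18 on the array) were lower and 0 were higher (12.5% called, with 5 lower under the spike-in scaling).

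The tissue kallikreins, a cluster of serine protease genes on chromosome 7, were a family in which AZA was the highest array for most members (a list drawn up after these values were seen). Of the 10 that passed the minimum mean 9 were higher with AZA than in ES and 0 were lower. Over all genes 3743 of 19190 were called (19.5%). The list was picked by its values and the AZA level enters the mean, so this contrast is a description only. The list's median was 2.78, beside 0.12 for CHQ minus ES. Another 5 of the 15 on the array were too dim to be called, with differences of 1.28 for Klk1b27, 0.47 for Klk1b1, 0.15 for Klk1b9, -0.08 for Klk1b11 and -0.13 for Klk1b16, and the median over the 15 was 2.13. The spike-in scaling also gave 9 higher and 0 lower. Klk1b3 had 9.23 in ES, 7.5 in ELA, 12.39 under AZA and 9.42 under CHQ, and Klk1b5 had 9.87, 7.39, 12.82 and 10.05. In both, ES and CHQ lay side by side, ELA was lowest and AZA highest. Klk1b21 differed from ES by -0.08. In this family 6 of the 10 probes share a run of at least 20 bases with another probe of the family, so the 9 calls are not 9 independent measurements. The Egfbp2 and Klk1b26 probes even lie on the same stretch of build mm9. They are printed with the longest run shared with the Egfbp2 probe in capitals (for Egfbp2, with Klk1b26).
Egfbp2, chr7:51272277-51272336, plus strand: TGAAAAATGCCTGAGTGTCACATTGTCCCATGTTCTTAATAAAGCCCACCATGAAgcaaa
Klk1b26, chr7:51272272-51272331, plus strand: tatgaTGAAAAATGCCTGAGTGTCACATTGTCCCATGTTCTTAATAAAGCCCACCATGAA
Klk1b5, chr7:51476012-51476071, plus strand: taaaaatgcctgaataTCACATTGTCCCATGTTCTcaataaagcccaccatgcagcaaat

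**Figure D3:**
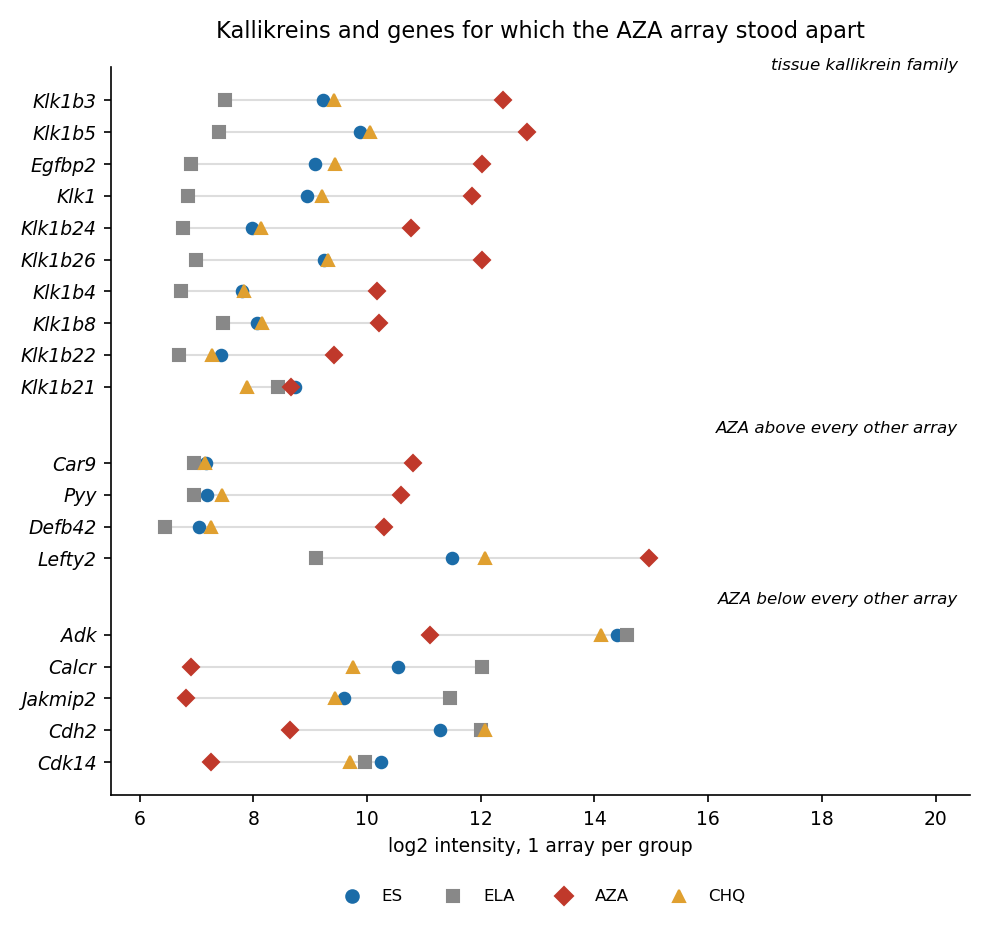
Log2 intensity (x axis) on the ES, ELA, AZA and CHQ arrays, 1 array each, of 10 tissue kallikreins and of genes for which AZA lay at least 1 above or below every other array. AZA (diamonds) lies to the right of the other arrays for 9 kallikreins, with Klk1b3 at 12.39 against 9.42 at most elsewhere, and to the left for Adk at 11.10.

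The remaining genes of the largest rises had AZA and CHQ both above ES. Syt10, a synaptotagmin, had 9.69 in ES, 11.73 in ELA, 15.09 under AZA and 14.48 under CHQ, and was the largest rise on the ELA side of ES. Mlana, a melanosome protein, had 9.12, 7.11, 13.86 and 13.16, and Apod, a lipid carrier, had 9.64, 8.44, 14.02 and 11.53, both past ES. Snx20 (5.27), Mst1 (5.10), Dusp13 (4.54, second probe 2.15), Vwce (4.35) and Matn1 (4.34) had ELA within 1 of ES. The rises on the ELA side of ES also included Kcp (3.15), Mxd4 (3.07, second probe 0.75) and Pygl (2.89).

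Over all genes tested 15447 of 19190 were within 1 of ES, and some lists had few calls. Of 32 cytosolic ribosomal protein genes 0 were called, with differences between -0.48 and 0.39, whereas 25 were lower under the spike-in scaling. Of 24 genes of DNA methylation 22 were within 1 of ES (8.33% called, with 1 higher and 5 lower under the spike-in scaling). Dnmt1, which copies methylation at replication and is a target of AZA, had 11.86 in ES, 11.93 in ELA, 11.82 under AZA and 11.81 under CHQ. Dnmt3b had 17.44, 18.49, 16.78 and 17.44, and Dnmt3l had 15.96, 13.22, 16.33 and 15.38, so both were near ES with AZA. The genes above ES were Zfp57 (1.20, second probe 0.45), a guardian of imprints, and Zbtb4 (1.92), whose second probe gave -0.16. Of 33 genes of DNA replication and the cell cycle 28 were within 1 of ES and 15.2% were called, a share near the 19.5% over all genes. Under the spike-in scaling 2 were higher and 12 lower.

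Markers of other cell types are given as whole lists, with the summed linear intensity of ES and of AZA, and with the same sums without the brightest member, which held a large part of most of them. Of 15 fibroblast markers 9 were well above background in ES and 9 with AZA, while Lum, Postn, Prrx1, Fap and Lox were so in neither. Their sum was 15680 in ES and 27080 with AZA, or 6734 and 9421 without Vim. Of the 7 that passed the minimum mean 1 was called higher and 2 lower (42.9%, against 19.5% over all genes). The median was 0.41 (-0.10 over the 15), and the spike-in scaling also gave 1 higher and 2 lower. Of 11 blood and endothelial markers 8 and 8 were above background, with Cdh5, Tie1 and Lyz2 in neither, and sums of 11210 and 8091 (3156 and 3286 without Kdr). Of 7 tested 2 were called higher and 1 lower (42.9%), with a median of 0.40 (-0.13 over the 11), whereas the spike-in scaling gave 0 higher and 3 lower. Of 22 primitive endoderm markers 14 were above background in ES and 20 with AZA, with sums of 171200 and 205500, or 54840 and 115600 without Sparc. Most of that remainder was Apoe, at 15.01 in ES and 16.59 with AZA, and the higher sum without Sparc rests on that gene. In that list 4 of 11 were called higher and 1, Spink1, lower (45.5%), with a median of 0.23 (0.20 over the 22). The spike-in scaling gave 2 higher and 3 lower, with a median of -0.31. The largest rise was in Hnf4a, at 6.47 in ES, 6.51 in ELA, 10.82 under AZA and 9.11 under CHQ. Its ES value lay below 6.51, the lowest value of a probe well above background on that array, so the size of the rise is not exact. The difference ran from 3.84 to 6.84 over the alternatives. Of 23 trophoblast markers 20 and 19 were above background, with sums of 222600 and 293900 that turned to 144200 and 68860 without Gcm1. Of 19 tested 5 were higher, among them Ascl2 (1.75), and 4 lower, among them Krt8 (-2.60). The share called was 47.4% and the median -0.07 (-0.08 over the 23). The spike-in scaling gave 1 higher and 7 lower, with a median of -0.52. Of 24 early neural markers 19 and 20 were above background, with sums of 91110 and 93750, or 51550 and 19780 without Otx2. Of 19 mesendoderm markers 15 and 15 were above background, with sums of 13050 and 9405 (5002 and 4600 without Kdr). Of 10 tested 1 was called lower and 0 higher (10.0%), or 3 lower and 0 higher with the spike-in scaling. The part of other cell types in the differences was not tested.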

How the data were processed

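Transcript levels of 4 groups were measured on single-colour Agilent arrays, with 1 array and a pool of RNA of 3 experiments per group. Per the file headers, the authors read the images with Feature Extraction 10.7.3.1. Mean and local background intensity of each spot, with detection flags, were deposited without normalisation between arrays. A deposited table of log2 values, quantile-normalised by the authors after background correction, served as an alternative. From the scanner files, the mean signal was corrected by normexp with an offset of 50 and quantile-normalised over 4 arrays in limma 3.58.1 (R 4.3.3), control and outlier spots were dropped, and spots of a probe were averaged. A gene took its brightest probe. Names came from the files or, for 26582 of 55681 probes, from RefSeq by accession. Probe positions are those of build mm9.

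A gene was called at a log2 difference of at least 1 with a mean of at least 7.5. The size thresholds follow the study's methods, whose p threshold needs replicates. Values here ran higher than in the authors' table (ES median 7.22 against 6.23), so a mean of 7.5 is a looser limit on this scale. For a probe too dim on 1 array, the bound uses the higher of its own value and the lowest value among probes well above background there. Calling was tested on simulated data with changes set above the limit. That checks the code and holds no slide effect, background gap or biological spread. Members, gene lists and the rule for named genes were chosen with earlier results of these data known. The rule named the markers of the study, the 12 largest rises and falls with every probe of the same sign, the 4 largest in each direction on the ELA side of ES and past ES, the 4 largest bounds, the 5 largest for which AZA stood apart and the 4 largest per list, and further list members are given as examples. Apart from the bounds, the ranked genes were well above background on both the ES and the AZA array. The tissue kallikrein and contractile lists were chosen after their values were seen. Alternatives covered background correction, scaling, the value table, the probe of a gene, filters and the size threshold. The number of arrays limits the precision.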

Additional observations from a re-analysis of the deposited data

How the results depend on the processing

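The counts of called genes were recomputed under 12 alternatives, the values of named genes and the list medians under 9, and the counts that use the ELA or CHQ array under 8. Of 1116 values of the 124 called genes that the rule for named genes picked 0 changed sign, while 36 values of 25 of these genes fell under 1 in size and 361 values moved by more than the technical SD of 0.19. These genes were called and mostly picked for the size of their difference. A lack of sign changes was therefore likely in advance and is no support for the calls. Without the spike-in scaling the range over alternatives still ran from -8.13 to -3.85 for Actc1, from -6.55 to -4.43 for Acta1 and from 5.31 to 8.82 for Xlr5b. Scaling to the spike-in probes gave 7148 called genes, 1157 higher and 5991 lower, with 950 on the ELA side of ES, 5816 with ELA near ES, and 2077 genes changed between ES and ELA with AZA within 1 of ES. A difference of at least 2 gave 717 genes, 556 higher and 161 lower. Under the other alternatives these counts stayed within 1.5 times. List medians changed sign under the spike-in scaling for ground state markers (-0.24), naive pluripotency (-0.43), Nodal and Lefty (-0.06), adhesion and matrix (-0.48), the ATF4 response (-0.16) and primitive endoderm (-0.31). The same held for fibroblast (-0.04), blood and endothelium (-0.04, and -0.15 with a normexp offset of 0) and detoxification (-0.25). Small medians also turned, for imprinted genes (0.09 to -0.36), priming markers (0.09 to -0.36) and the formative and primed epiblast (0.01 to -0.63). Those of metallothioneins and zinc (0.06 to -0.81) and of interferon and antiviral genes (0.18 to -0.35) turned as well. The cause was not tested beyond the shift of the median of all genes to -0.66. Dim probes are limited by signal over background, which differed between the slides. The planned count of CG pairs in promoters is void, since a promoter window was found for 10158 of 12746 tested genes named through RefSeq (79.7%), under the minimum of 80%. No paired analysis was possible because each group has 1 array.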
